A study of Mus musculus with 48 samples.

Results

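The receptors through which serotonin, dopamine, noradrenaline, histamine and acetylcholine act on brain cells were followed in the frontal cortex and hypothalamus of sleep-deprived mice. The 34 genes were taken by name, for serotonin, dopamine, noradrenaline, histamine, muscarinic and nicotinic acetylcholine receptors, out of 18883 genes to which array probes could be matched by RefSeq accession. No measured value entered the rule, though the list was chosen with earlier results of these data known. A probe was matched for 32 of them, 44 probes in all, and Htr3a and Hrh2 were not analysed here. Htr4, which has 2 probes, stood well above the background on at most 5 of 24 arrays of a tissue with either probe and was not tested.

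The study asked how a human repeat polymorphism of the clock gene Per3 bears on sleep and on the response to sleep loss. Groups of 8 adult C57BL/6 mice were compared, Per3 5/5 (labelled Boxhill), Per3 4/4 (labelled Coach) and wild-type (WT) mice. The repeat numbers alone, 5/5 and 4/4, name the groups that carry the human exon where both are meant. The knock-in (KI) mice are homozygous for a Per3 gene in which a mouse exon gave way to its human counterpart, which carries 5 or 4 repeats, after excision by a ubiquitously expressed Cre that was bred out again. WT mice, homozygous for the mouse gene and also free of Cre, descended from the same conditional animals, and each genotype was kept as a homozygous line. All 24 mice went through 12 h of sleep deprivation and none of those measured here had rested, so a difference between genotypes is one between sleep-deprived mice. Frontal cortex and hypothalamus of each mouse were hybridised to 1 array each, 48 arrays in all.

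Monoamines, histamine and acetylcholine are released by small nuclei of the brainstem, hypothalamus and basal forebrain whose long axons reach nearly the whole forebrain, and their activity rises and falls with waking and sleep. Apart from the nicotinic receptors and the serotonin receptor encoded by Htr3a, which are ion channels opened by their ligand, these receptors couple to G proteins. Coupling to Gs raises cyclic AMP, coupling to Gi lowers it and often holds back transmitter release, and coupling to Gq drives phospholipase C and calcium release.

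PER proteins act as repressors at E-boxes, the CACGTG element bound by CLOCK and BMAL1, and the receptor promoters that held this element are therefore shown. RefSeq promoters (build GRCm38.p6) were found for 28 of the 34 genes, 36 promoters of 300 bases. CACGTG, which reads the same on both strands, occurred in 3 of them (8.33%) against 2349 of all 32851 promoters (7.15%). The 3 promoters belonged to Adra2a (chr19:54045009-54045258, plus strand), Adra2c (chr5:35278316-35278565, plus strand) and Chrna7 (chr7:63212527-63212776, minus strand). The 250 bases before each transcript start are printed 5′ to 3′ with the E-box in capitals, its first base 80, 152 and 66 bases before the start.
Adra2a: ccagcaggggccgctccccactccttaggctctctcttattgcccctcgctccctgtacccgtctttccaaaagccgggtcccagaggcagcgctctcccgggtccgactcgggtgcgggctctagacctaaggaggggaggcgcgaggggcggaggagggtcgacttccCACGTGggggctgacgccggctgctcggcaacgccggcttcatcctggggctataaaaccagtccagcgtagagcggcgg
Adra2c: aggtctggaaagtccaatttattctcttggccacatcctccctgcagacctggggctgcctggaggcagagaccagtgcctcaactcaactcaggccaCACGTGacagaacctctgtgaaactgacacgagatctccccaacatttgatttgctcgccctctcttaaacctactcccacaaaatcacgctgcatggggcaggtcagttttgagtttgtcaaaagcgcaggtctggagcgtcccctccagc
Chrna7: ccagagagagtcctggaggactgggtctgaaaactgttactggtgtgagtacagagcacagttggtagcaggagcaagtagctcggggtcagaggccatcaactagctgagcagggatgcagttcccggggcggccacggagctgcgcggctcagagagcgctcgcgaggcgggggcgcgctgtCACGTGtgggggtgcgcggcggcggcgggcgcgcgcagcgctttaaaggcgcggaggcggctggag
The cyclic AMP response element TGACGTCA and the D-box TTATGTAA, searched on both strands, occurred in 0 of the 36 promoters, and in 1.79% and 0.938% of all promoters.

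Levels are log2 of the processed spot intensity minus log2 of the 75th percentile of the same array, so that 0 is the brightness of the 75th percentile spot. They compare arrays for 1 probe and not 1 probe with another. A probe was tested where it stood well above the background on at least 6 of the 8 arrays of a group, and where a gene had several tested probes the brightest stood for it. Before scaling, the 75th percentile was 1266 ± 180 (SD, n = 8) in WT, 745 ± 267 in Per3 4/4 and 908 ± 139 in Per3 5/5 cortex, with the same order in the hypothalamus. The arrays were scanned on 3 days, of which scan day 1 held no WT mouse. Both tissue labels fitted their defining markers: 8 of 8 markers of cortical excitatory neurons were lower in the hypothalamus (median log2 difference -4.22). Of 10 listed markers of hypothalamic neurons 9 were tested between tissues, and all 9 were higher (median 6.94). Only 6 of these passed the filter within the cortex. The others passed through the hypothalamus alone, where they were the brighter, and could only differ.

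The receptor genes differed widely between the tissues. Of 31 tested, 27 (87.1%) differed between hypothalamus and frontal cortex at an adjusted p under 0.05 (limma), where 72.7% of 16064 genes did. In the hypothalamus 12 were higher and 15 lower, against 40.7% and 32% of all genes. Chrna5 and Chrna3 had passed the filter through 1 tissue only, where they were the brighter, and could only differ. The median log2 difference of the 31 was -0.14, against 0.05 over all genes. All tested dopamine, noradrenaline, histamine, muscarinic and nicotinic receptor genes passed the test, and 5 of 9 serotonin receptor genes. Hypothalamus samples always lay at slide positions 1 and 3 and cortex samples at positions 2 and 4, so tissue and slide position cannot be told apart. In these tissue blocks fewer cells of a type and less RNA per cell cannot be told apart either.

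**Figure D1:**
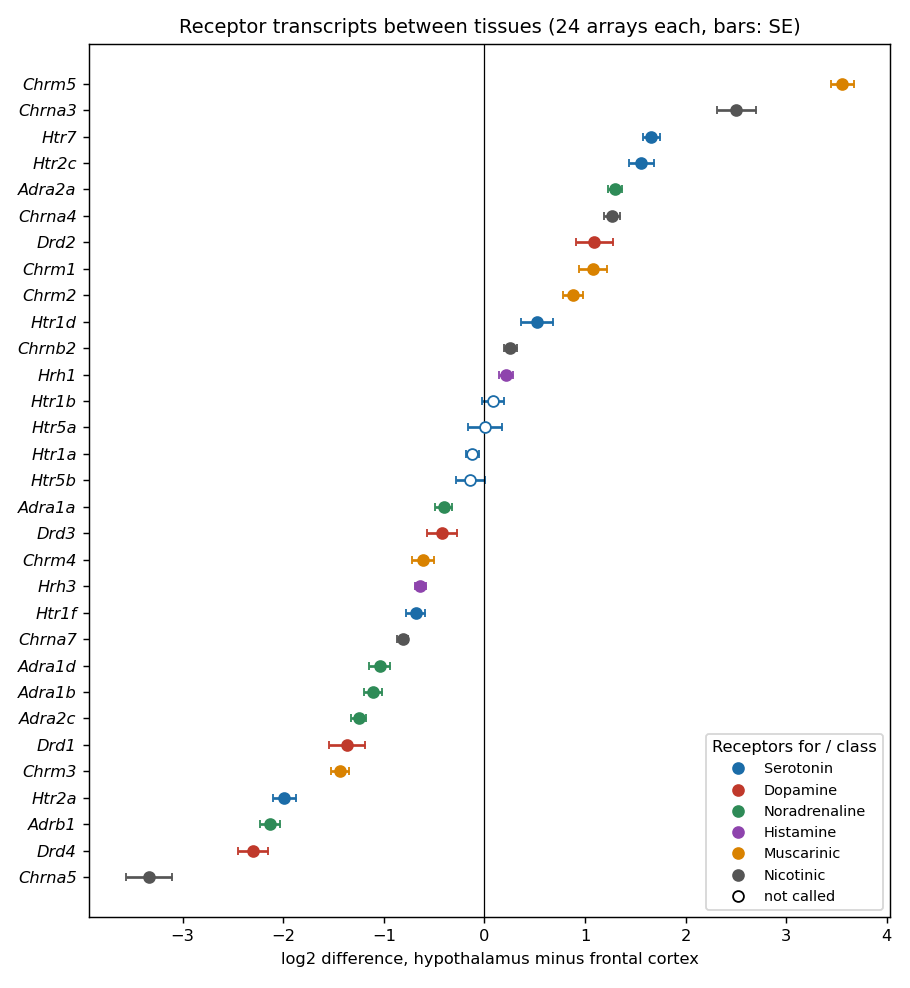
Difference in receptor transcript level between hypothalamus and frontal cortex (log2, horizontal axis) for 31 receptor genes, over 24 arrays of each tissue with SE bars, coloured by ligand or receptor class, open where not called. Chrm5 lies farthest to the hypothalamus side at 3.56 and Drd4 and Adrb1 lie on the cortex side at -2.30 and -2.13. Chrna3 and Chrna5 were tested through 1 tissue only, and the 4 open symbols are all serotonin receptor genes.

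Of 9 tested serotonin receptor genes 3 were higher and 2 lower in the hypothalamus, and genes of the same coupling ran both ways. Htr7, which couples to Gs, was the serotonin receptor gene furthest to the hypothalamus side. It ranged from -2.25 to -0.57 with a median of -1.87 on the 24 hypothalamus arrays and from -4.06 to -3.01 with a median of -3.45 on the 24 cortex arrays. The tissues did not overlap, and the log2 difference was 1.66 ± 0.08 (SE), 3.16-fold (adjusted p = 2.02e-22). Htr2c, a Gq-coupled receptor known from feeding circuits of the hypothalamus, ranged from 0.44 to 1.14 (median 0.83) in the hypothalamus and from -1.47 to 0.93 (median -0.89) in the cortex. It was 2.94-fold higher in the hypothalamus, with overlapping tissues, and its second probe gave a log2 difference of 1.21 against 1.56.

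Htr2a, the Gq-coupled receptor of cortical pyramidal neurons and a target of classical psychedelics, lay on the other side. Its values ranged from -4.83 to -3.21 (median -3.62) in the cortex and from -7.11 to -4.88 (median -5.56) in the hypothalamus, where 22 of 24 arrays stood well above the background. The tissues did not overlap and the hypothalamus was 3.98-fold lower (adjusted p = 2.27e-20). Of the Gi-coupled members, Htr1f was lower in the hypothalamus by a log2 difference of -0.68 and Htr1d higher by 0.52. Htr1a, the autoreceptor of raphe neurons that is also found on their target cells, ranged from -3.47 to -2.55 in the cortex and from -3.54 to -2.74 in the hypothalamus and did not pass the test (-0.12 ± 0.06, adjusted p = 0.092). Htr1b, Htr5a and Htr5b, at log2 differences of 0.08 ± 0.11, 0.00 ± 0.17 and -0.14 ± 0.14, did not pass either.

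Among dopamine receptors Drd4, a Gi-coupled receptor of the prefrontal cortex, ranged from -3.17 to -1.52 (median -2.39) in the cortex and from -6.14 to -2.26 (median -4.87) in the hypothalamus. It was 4.92-fold lower in the hypothalamus (adjusted p = 1.11e-18), and 23 of 24 hypothalamus arrays lay below every cortex array. Drd1, the Gs-coupled receptor, was 2.58-fold lower in the hypothalamus (log2 difference -1.37 ± 0.18, adjusted p = 4.14e-09) over a wide cortex range, from -2.77 to 0.83. Drd2, the Gi-coupled receptor that dopamine neurons also carry themselves, was 2.13-fold higher in the hypothalamus (1.09 ± 0.18, adjusted p = 8.11e-07). Its cortex range was wide too, from -5.43 to -1.95 against -3.62 to -2.25. Drd3 was lower by -0.42 ± 0.15 (adjusted p = 0.0111).

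The spread of Drd1 and Drd2 in the cortex ran with markers of striatal projection neurons, which carry these receptors at high levels. On 6 cortex arrays (WT replicates 3, 7 and 8, Per3 4/4 replicate 2 and Per3 5/5 replicates 4 and 7) the summed level of the 8 striatal markers lay between 5.86 and 7.41, and on the other 18 between 4.40 and 5.55. The same 6 arrays held the 6 highest values of Drd1, from -0.36 to 0.83 against -2.77 to -0.66 on the other 18. They also held the 6 highest of Drd2, from -3.45 to -1.95 against -5.43 to -3.75. Drd3, Drd4 and Chrm4 had 0 of the 6 arrays above all others, and Htr2c had 2. Without the 6 arrays, a choice made after seeing the data, Drd1 differed between tissues by -0.96 (adjusted p = 4.13e-10) and Drd2 by 1.46 (adjusted p = 4.42e-14).

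**Figure D2:**
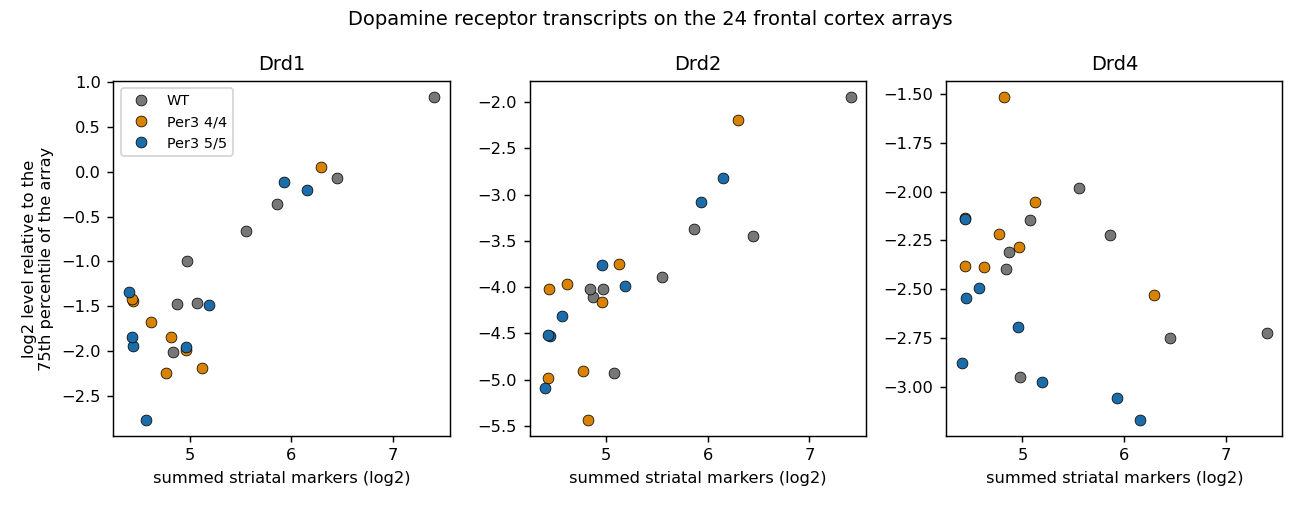
Levels of Drd1, Drd2 and Drd4 (log2, vertical axes) against the summed level of 8 striatal marker genes (log2, horizontal axes) on the 24 frontal cortex arrays, coloured by genotype. The 6 arrays at 5.86 or above hold the 6 highest values of Drd1 and of Drd2 but not of Drd4.

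All 6 noradrenaline receptor genes differed between the tissues, 5 of them lower in the hypothalamus. Adrb1, the Gs-coupled beta receptor, ranged from 0.20 to 1.62 (median 0.69) in the cortex and from -2.03 to -0.34 (median -1.49) in the hypothalamus. The tissues did not overlap and the hypothalamus was 4.37-fold lower (adjusted p = 7.45e-24). Its second, dimmer probe differed by -1.42 ± 0.13. The Gi-coupled alpha-2 receptors, which act as autoreceptors of noradrenaline neurons, ran in opposite directions. Adra2a ranged from 2.01 to 2.58 in the hypothalamus and from 0.62 to 1.98 in the cortex, 2.47-fold higher without overlap (adjusted p = 1.26e-21). Adra2c ranged from -1.79 to -0.66 in the hypothalamus and from -0.43 to 0.48 in the cortex, 2.38-fold lower without overlap (adjusted p = 7.01e-21). Both genes hold the E-box in the promoters printed above. A second Adra2a probe gave 1.32, but probe A_51_P423000 gave 0.16 ± 0.09 and did not pass (adjusted p = 0.125). The Gq-coupled alpha-1 receptor genes Adra1b, Adra1d and Adra1a were lower in the hypothalamus by -1.11, -1.04 and -0.41.

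The differences of the histamine receptor genes were smaller. Hrh3, the Gi-coupled receptor through which histamine neurons restrain their own release, ranged from 4.50 to 5.32 (median 4.77) in the cortex and from 3.84 to 4.57 (median 4.20) in the hypothalamus. It was 1.56-fold lower in the hypothalamus (adjusted p = 8.22e-14), with 21 of 24 hypothalamus arrays below every cortex array. Hrh1, the Gq-coupled receptor that sedating antihistamines block, was 1.16-fold higher in the hypothalamus (adjusted p = 0.00932), and its tissues overlapped, from 0.93 to 1.76 against 0.42 to 1.87. Without the 6 cortex arrays high in striatal markers the Hrh1 difference was 0.12 and did not pass (adjusted p = 0.0959), and it was 0.15 (adjusted p = 0.0593) without 3 hypothalamus arrays high in cortical markers, described with the genotypes.

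Acetylcholine receptor genes lay at both ends of the set. Chrm5, a Gq-coupled muscarinic receptor known from midbrain dopamine neurons, ranged from -3.17 to -1.40 (median -1.92) in the hypothalamus and from -6.25 to -4.31 (median -5.43) in the cortex. It was 11.8-fold higher in the hypothalamus without overlap (adjusted p = 1.4e-30). The summed level of 7 markers of midbrain dopamine and raphe serotonin neurons lay between 2.91 and 4.22 on the hypothalamus arrays. On the cortex arrays it lay between -0.31 and 0.50. Ddc, Th, Slc18a2 and Slc6a3 were the 4 markers called higher in the hypothalamus. Tph2, a raphe marker, was called lower, with a mean of -6.07 against -5.07 in the cortex, and the others were not called. The part of these markers in the Chrm5 difference was not tested. Chrm3, another Gq-coupled muscarinic receptor, was 2.71-fold lower in the hypothalamus (log2 difference -1.44 ± 0.09), from -4.36 to -2.32 against -2.84 to -1.62. Of the Gi-coupled pair, Chrm2 was higher in the hypothalamus by 0.88 ± 0.10 and Chrm4 lower by -0.61 ± 0.11.

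Chrna5, an accessory nicotinic subunit, stood well above the background on 23 of 24 cortex arrays but on 8 of 24 hypothalamus arrays. It ranged from -6.96 to -2.86 (median -3.59) in the cortex and from -8.73 to -5.92 (median -7.08) in the hypothalamus. It was at least 7.22-fold lower in the hypothalamus, with each array there set to its faintest signal well above the background or the probe's own signal if higher. Chrna3, the subunit of autonomic ganglia and the medial habenula, was its opposite. Its brighter probe stood well above the background on all 24 hypothalamus arrays and on 1 of 24 cortex arrays, of a Per3 4/4 mouse. The hypothalamus was at least 3.31-fold higher in WT mice and at least 2.05-fold higher in Per3 5/5 mice, with the cortex arrays set in the same way. Of 5 listed medial habenula markers 3 were tested, with Gpr151 higher in the hypothalamus (1.09), Nwd2 lower (-2.03) and Pou4f1 not called (-0.03). Gpr151 stood well above the background on 7 of 24 cortex and 22 of 24 hypothalamus arrays. It had passed the filter through the hypothalamus only and could only differ. The part of these markers in the Chrna3 difference was not tested. Chrna7, the subunit that forms channels on its own, was lower in the hypothalamus by -0.81 ± 0.06. Its dimmer probe, well above the background on 9 of 24 cortex and 15 of 24 hypothalamus arrays, gave -0.01 and did not pass. Chrnb2, the partner of Chrna4 in the main high-affinity nicotinic receptor of the brain, was higher by 0.26 ± 0.07 (adjusted p = 0.000604).

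For Chrm1 and Chrna4 the direction depended on the probe. Chrm1 encodes the Gq-coupled muscarinic receptor abundant on cortical neurons. With probe A_52_P393577 it ranged from -3.08 to -2.37 in the cortex and from -7.92 to -5.82 in the hypothalamus, without overlap. This probe stood well above the background on 24 of 24 cortex and 8 of 24 hypothalamus arrays and was at least 13.2-fold lower in the hypothalamus. With the brighter probe A_52_P85372 it ranged from -2.44 to -1.10 in the cortex and from -2.26 to -0.09 in the hypothalamus, 2.11-fold higher (adjusted p = 2.38e-09), and this probe was the one counted above. Chrna4 gave 1.27 ± 0.08 with probe A_52_P350750 and -0.78 ± 0.10 with probe A_51_P104487, both past the test. The positions of these probes on their transcripts were not used here, so the direction of either gene between tissues is not settled.

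**Figure D3:**
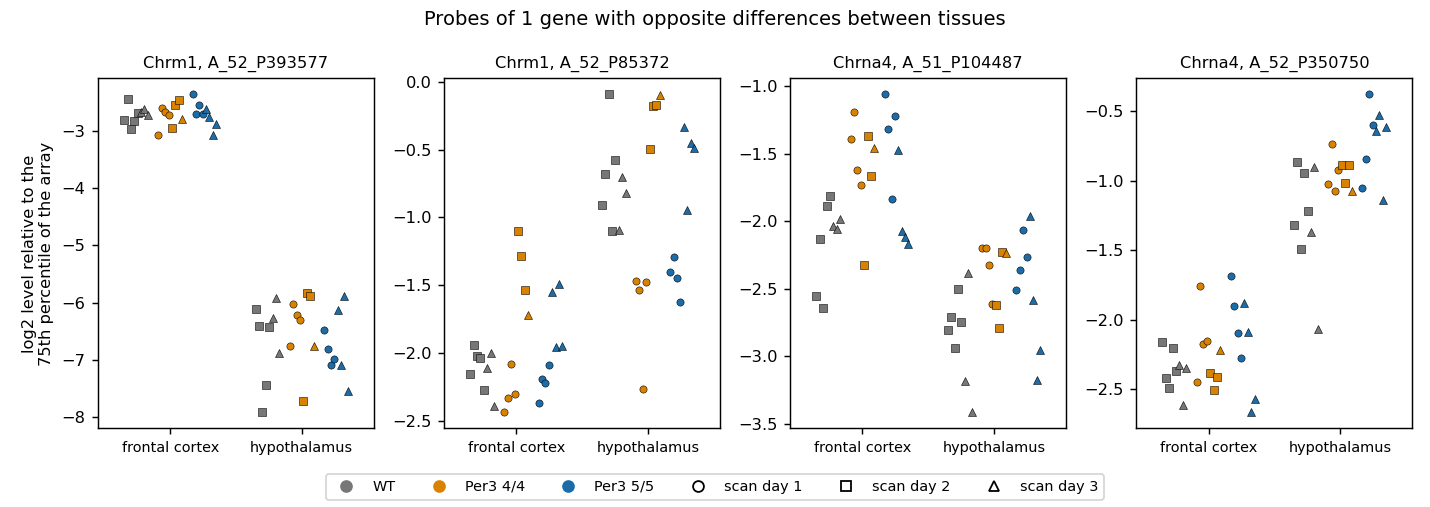
Levels of the 2 probes of Chrm1 and of Chrna4 (log2, vertical axes) in frontal cortex and hypothalamus for each mouse, coloured by genotype with symbols for the scan day. Within each gene 1 probe is higher in the cortex and the other in the hypothalamus, and in the hypothalamus the KI values of Chrm1 A_52_P85372 on scan day 1 lie below all KI values of the other days.

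Within WT, 4/4 and 5/5 mice alone, 22, 23 and 24 of the 31 receptor genes differed between tissues, where 57.8%, 57.1% and 55.5% of all genes did. No receptor gene passed limma's test of a genotype difference that itself differed between tissues, against 0% of all genes for Per3 4/4 against WT, 0.0125% for Per3 5/5 against WT and 0% for Per3 5/5 against Per3 4/4. At an unadjusted p under 0.05 there were 5, 3 and 1 receptor genes in these tests. A genotype difference called in 1 tissue only is therefore not shown to be particular to that tissue.

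Genotype differences were smaller. By limma 0 of the 30 receptor genes tested in a tissue differed between 5/5 and 4/4 mice, as 0% of all genes did, and 5 in the cortex and 3 in the hypothalamus reached an unadjusted p under 0.05. Drd4 in the cortex ranged from -3.17 to -2.14 (median -2.79) in Per3 5/5 and from -2.53 to -1.52 (median -2.25) in Per3 4/4 mice, a log2 difference of -0.56 ± 0.16 that did not pass (adjusted p = 0.285). Hrh3 and Htr1a in the cortex differed by 0.31 ± 0.09 and 0.26 ± 0.11 and Htr7 in the hypothalamus by 0.41 ± 0.16, also short of the threshold.

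Against WT, 4 of 30 receptor genes (13.3%) differed in Per3 5/5 cortex where 11.6% of 15398 genes did, 3 of them higher (7.11% of all genes) and 1 lower (4.49%). In Per3 4/4 cortex 4 (13.3%) differed where 23.2% of all genes did, 3 higher (12.8%) and 1 lower (10.4%). In the hypothalamus 6 (20%) differed in Per3 5/5 mice where 20.5% of 15924 genes did, 6 higher (9.66%) and 0 lower (10.9%), and 5 (16.7%) in Per3 4/4 mice where 16.7% did, 4 higher (8.18%) and 1 lower (8.5%). These shares lay near or below the background, so the counts are no result about the receptors as a set. Their median log2 differences were 0.115 and 0.08 in 5/5 and 4/4 cortex and 0.11 and 0.18 in the hypothalamus, against 0.02, 0.02, -0.02 and 0.02 over all genes. The comparisons with WT share the 8 WT arrays of a tissue.

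Direction among called probes depended on the scaling. Over all probes tested, 68.4% of those called in Per3 5/5 cortex against WT were higher, and 19.2% were when arrays were scaled to the median, which moved the median log2 difference of all probes from 0.06 to -0.05. In Per3 4/4 cortex the share went from 59.4% to 34.2%, and in the hypothalamus it went from 54.6% to 34.5% (Per3 5/5) and from 54.8% to 31.8% (Per3 4/4). No receptor difference given below as called turned its sign with the median scaling. Once scan day was blocked 1, 2, 0 and 0 receptor genes were called in Per3 5/5 cortex, Per3 4/4 cortex, Per3 5/5 hypothalamus and Per3 4/4 hypothalamus, where 0.986%, 7.72%, 2.1% and 0.745% of all probes tested were. Values within 1 scan day below compare 3 Per3 4/4 with 5 WT mice of scan day 2, or 4 Per3 5/5 with 3 WT mice of scan day 3.

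**Figure D4:**
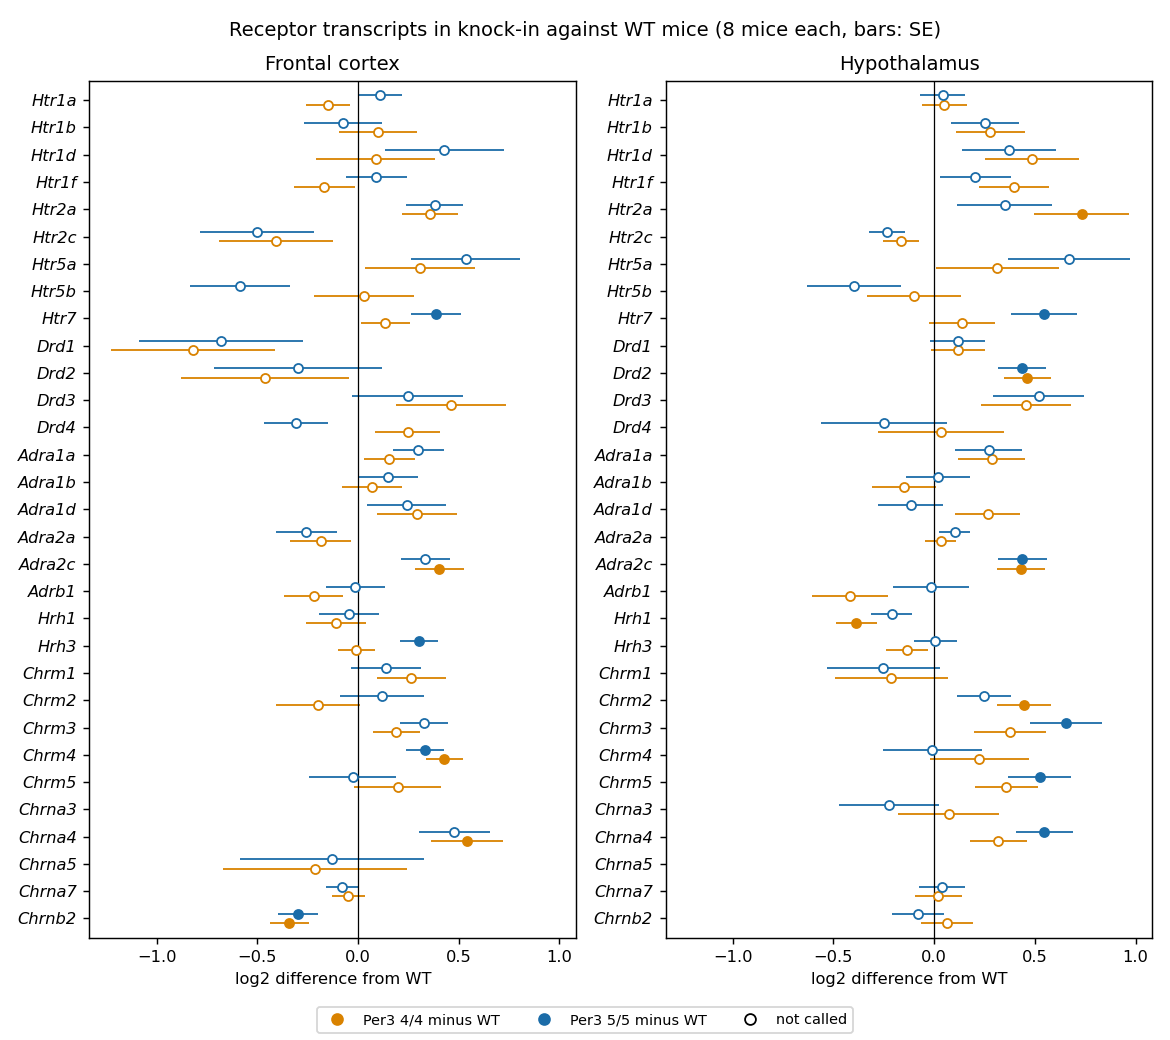
Difference of Per3 4/4 (orange) and Per3 5/5 (blue) mice from WT mice (log2, horizontal axes) for each receptor gene in frontal cortex (left) and hypothalamus (right), 8 mice a group, with SE bars, filled where called. Differences called in both KI groups are those of Chrm4 and Chrnb2 in the cortex and of Drd2 and Adra2c in the hypothalamus.

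Among noradrenaline receptors Adra2c was higher in KI mice. In the cortex it ranged from -0.43 to 0.46 (median -0.24) in WT, from -0.07 to 0.48 (median 0.34) in Per3 4/4 and from -0.25 to 0.41 (median 0.24) in Per3 5/5 mice. A single WT mouse reached the upper KI values and the groups overlapped. Adra2c rose in Per3 4/4 cortex by 0.40 ± 0.12 (1.32-fold, adjusted p = 0.0213), and in Per3 5/5 cortex the difference of 0.33 ± 0.12 did not pass (adjusted p = 0.0686). In the hypothalamus it ranged from -1.79 to -0.86 (median -1.47) in WT, from -1.46 to -0.79 (median -0.99) in Per3 4/4 and from -1.31 to -0.66 (median -1.03) in Per3 5/5 mice. It rose in both KI groups, by 0.43 ± 0.12 (adjusted p = 0.022) and 0.44 ± 0.12 (adjusted p = 0.0154), again with overlap. Blocking scan day, the 3 called differences were 0.26, 0.29 and 0.35 (adjusted p = 0.187, 0.171 and 0.111), and within 1 scan day 0.31, 0.14 and 0.44 (adjusted p = 0.409, 0.752 and 0.231).

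Adrb1 again depended on the probe. With the dimmer probe A_51_P203827 it ranged in the cortex from -3.84 to -3.27 (median -3.43) in WT, from -2.74 to -2.54 (median -2.66) in Per3 4/4 and from -3.74 to -2.10 (median -2.72) in Per3 5/5 mice. Every Per3 4/4 mouse lay above every WT mouse, and this probe rose by 0.81 ± 0.18 in Per3 4/4 (1.76-fold, adjusted p = 0.0038) and by 0.55 ± 0.18 in Per3 5/5 cortex (adjusted p = 0.0465). When scan day entered the fit, the Per3 4/4 difference was 0.60 and passed (adjusted p = 0.0398), and within scan day 2 it was 0.81 and did not (adjusted p = 0.0503). The Per3 5/5 difference was 0.38 with the block (adjusted p = 0.235) and 0.07 within scan day 3 (adjusted p = 0.922). The brighter probe gave -0.22 ± 0.15 and -0.01 ± 0.15 and did not pass.

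Likewise a dimmer probe of Adra1b rose in Per3 4/4 cortex by 0.66 ± 0.21 (adjusted p = 0.0244) where the brighter gave 0.07 ± 0.15. The Adra2a probe A_51_P423000 rose in Per3 4/4 hypothalamus by 0.53 ± 0.18 (adjusted p = 0.0429) where the brightest gave 0.03 ± 0.08. With scan day blocked, these were 0.35 and 0.23 (adjusted p = 0.249 and 0.36), and within scan day 2 0.29 and 0.16 (adjusted p = 0.434 and 0.678). Adra1a and Adra1d were not called against WT with any probe.

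Drd2 was the dopamine receptor gene called against WT, in the hypothalamus. It ranged there from -3.62 to -2.93 (median -3.11) in WT, from -2.93 to -2.44 (median -2.79) in Per3 4/4 and from -3.10 to -2.25 (median -2.73) in Per3 5/5 mice. All 8 Per3 4/4 mice and 6 of 8 Per3 5/5 mice lay above every WT mouse. The level rose by 0.46 ± 0.12 in Per3 4/4 (1.38-fold, adjusted p = 0.0163) and by 0.43 ± 0.12 in Per3 5/5 hypothalamus (1.35-fold, adjusted p = 0.015). In a fit with scan day blocked the differences were 0.39 and 0.35 (adjusted p = 0.128 and 0.154), and within 1 scan day 0.47 and 0.17 (adjusted p = 0.55 and 0.524). Summed striatal markers lay between 5.29 and 6.0 in WT, 5.29 and 5.88 in Per3 4/4 and 5.26 and 5.64 in Per3 5/5 hypothalamus. Of the 8, 1 (12.5%), Ppp1r1b, was called in each KI group, higher by 0.95 and 0.80, where 16.7% and 20.5% of all genes were called. In the cortex Drd1 and Drd2 differed from WT by -0.82 ± 0.41 and -0.46 ± 0.42 in Per3 4/4 and by -0.68 ± 0.41 and -0.30 ± 0.42 in Per3 5/5 mice, and did not pass. Of the 6 cortex arrays high in striatal markers 3 were WT.

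Among serotonin receptors Htr7 was higher in both tissues of Per3 5/5 mice. Cortex levels ranged from -4.06 to -3.18 (median -3.60) in WT, from -3.81 to -3.16 (median -3.50) in Per3 4/4 and from -3.47 to -3.01 (median -3.21) in Per3 5/5 mice, and rose by 0.39 ± 0.12 in Per3 5/5 (1.31-fold, adjusted p = 0.0407). In the hypothalamus it ranged from -2.25 to -1.69 (median -2.04) in WT, from -2.04 to -1.59 (median -1.88) in Per3 4/4 and from -1.98 to -0.57 (median -1.73) in Per3 5/5 mice. Per3 5/5 replicates 6, 7 and 8, all of scan day 3, lay at -0.98, -0.57 and -1.02, above every mouse of the other groups, and the other 5 Per3 5/5 mice between -1.98 and -1.69. It rose there by 0.55 ± 0.16 (1.46-fold, adjusted p = 0.0235), and without those 3 arrays the difference was 0.18 and did not pass (adjusted p = 0.167). Once scan day was blocked these Per3 5/5 differences were 0.38 and 0.64 (adjusted p = 0.155 and 0.0559), and within scan day 3 0.48 and 0.84 (adjusted p = 0.129 and 0.239). The Per3 4/4 differences of 0.13 ± 0.12 and 0.14 ± 0.16 did not pass.

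Htr2a rose in Per3 4/4 hypothalamus by 0.73 ± 0.24 (1.66-fold, adjusted p = 0.0398). There it ranged from -7.11 to -5.51 (median -5.83) in WT mice, of which 6 of 8 stood well above the background, from -5.84 to -4.88 (median -5.29) in Per3 4/4 and from -6.42 to -5.10 (median -5.54) in Per3 5/5 mice. The Per3 4/4 and WT groups overlapped, with 6 of 8 Per3 4/4 mice above every WT mouse. The difference was 0.51 with scan day blocked (adjusted p = 0.26), -0.12 with slide as a fixed block and 0.75 within scan day 2 (adjusted p = 0.55). Without the dim arrays of Per3 4/4 replicates 6 and 7, a choice made after seeing the data, it was 0.65 and did not pass (adjusted p = 0.0786). In the cortex Htr2a differed from WT by 0.36 ± 0.14 in Per3 4/4 and 0.38 ± 0.14 in Per3 5/5 mice (adjusted p = 0.0689 and 0.0739). The other serotonin receptor genes were not called against WT. Htr1a gave log2 differences between -0.15 and 0.11, and the brighter probe of Htr2c between -0.50 and -0.16, while its second probe gave -0.24 to 0.39.

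The histamine receptor genes were called against WT in 1 comparison each. Hrh3 in the cortex ranged from 4.50 to 4.95 (median 4.78) in WT, from 4.57 to 5.01 (median 4.72) in Per3 4/4 and from 4.66 to 5.32 (median 5.08) in Per3 5/5 mice, of which 6 of 8 lay above every WT mouse. It rose in Per3 5/5 cortex by 0.30 ± 0.09 (1.23-fold, adjusted p = 0.0377), and the difference was 0.28 with scan day blocked (adjusted p = 0.153) and 0.44 within scan day 3 (adjusted p = 0.172). In the hypothalamus Hrh3 differed by 0.01 ± 0.11, and the difference between the tissues did not pass (-0.30 ± 0.14). Hrh1 in the hypothalamus ranged from 1.28 to 1.76 (median 1.61) in WT, from 0.93 to 1.44 (median 1.26) in Per3 4/4 and from 1.17 to 1.71 (median 1.24) in Per3 5/5 mice. It fell by 0.39 on the log2 scale in Per3 4/4 hypothalamus (SE 0.10, 1.31-fold, adjusted p = 0.0182), with 5 of 8 mice below every WT mouse. Blocking scan day, the difference was -0.28 (adjusted p = 0.154) and within scan day 2 -0.43 (adjusted p = 0.55). The Per3 5/5 difference of -0.21 ± 0.10 did not pass.

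**Figure D5:**
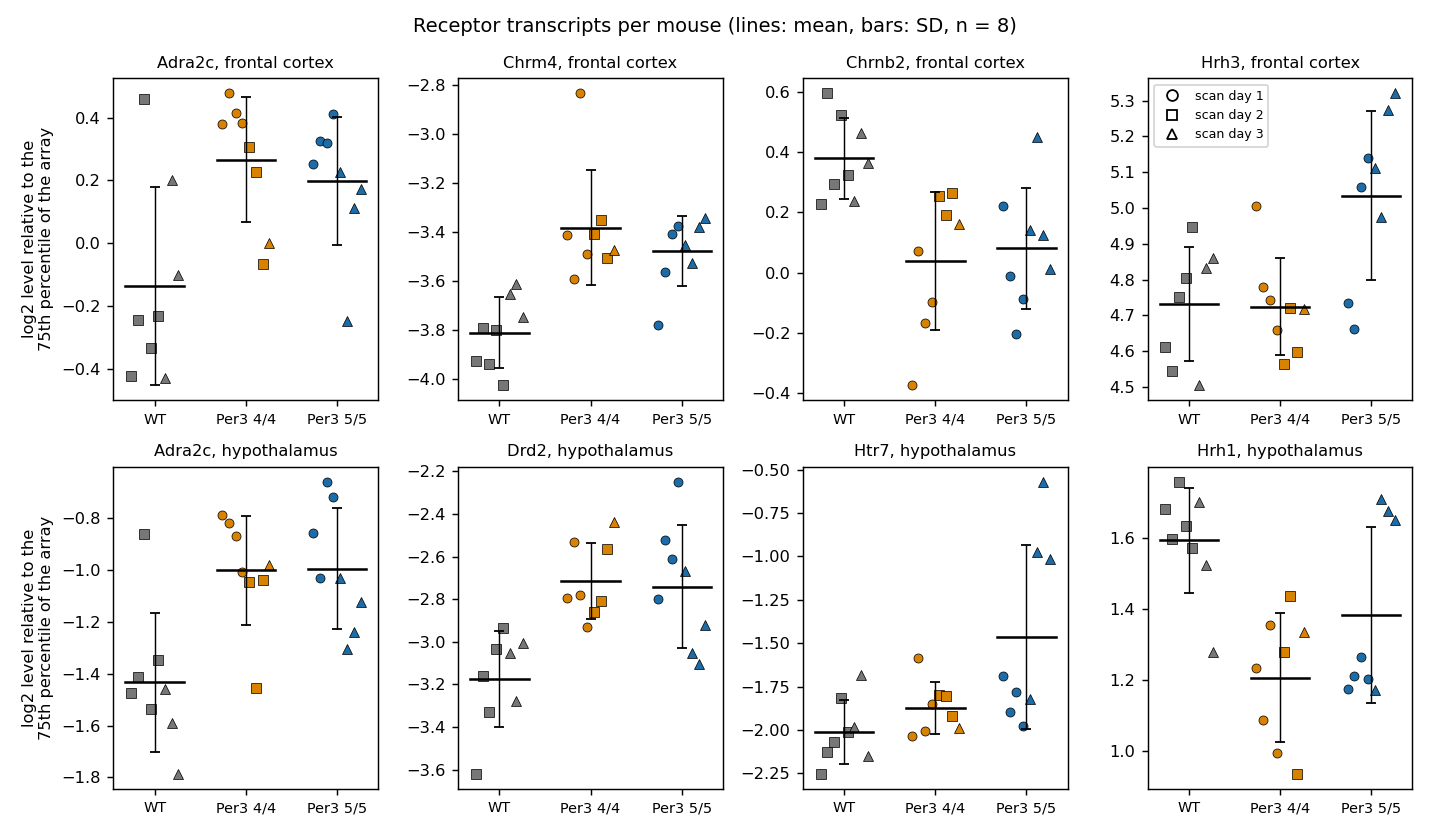
Levels of 7 receptor genes (log2, vertical axes) for each mouse by genotype, in frontal cortex (top) and hypothalamus (bottom), with symbols for the scan day, lines at the mean and bars of 1 SD (n = 8). All Per3 4/4 mice lie above all WT mice for Chrm4 in the cortex and Drd2 in the hypothalamus, and WT mice occur on scan days 2 and 3 only.

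Chrm4, the Gi-coupled muscarinic receptor that restrains acetylcholine release and tempers dopamine signalling, was called in the cortex also with scan day in the fit. It ranged from -4.03 to -3.61 (median -3.80) in WT, from -3.59 to -2.83 (median -3.44) in Per3 4/4 and from -3.78 to -3.34 (median -3.43) in Per3 5/5 mice. All 8 Per3 4/4 and 7 of 8 Per3 5/5 mice lay above every WT mouse. Its level rose by 0.43 ± 0.09 in Per3 4/4 (1.35-fold, adjusted p = 0.0035) and by 0.33 ± 0.09 in Per3 5/5 cortex (1.26-fold, adjusted p = 0.0241). When scan day entered the fit, the Per3 4/4 difference was 0.42 and passed (adjusted p = 0.0185) and the Per3 5/5 difference was 0.26 and did not (adjusted p = 0.167). Within 1 scan day they were 0.47 (adjusted p = 0.0602) and 0.24 (adjusted p = 0.283). A dimmer Chrm4 probe gave -0.02 ± 0.17 and 0.04 ± 0.17 and did not pass, so the rise rests on 1 of 2 probes. In the hypothalamus Chrm4 differed by 0.22 ± 0.24 and -0.01 ± 0.24.

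In the hypothalamus Chrm3 and Chrm5, both coupled to Gq, were called higher in Per3 5/5 mice and Chrm2, coupled to Gi, in Per3 4/4 mice. None of them was called between 5/5 and 4/4 mice. Chrm3 ranged from -4.36 to -3.55 (median -3.89) in WT, from -3.74 to -3.20 (median -3.44) in Per3 4/4 and from -3.72 to -2.32 (median -3.41) in Per3 5/5 mice, and was 1.58-fold higher in Per3 5/5 mice (0.66 ± 0.18, adjusted p = 0.0151). Chrm5 ranged from -3.17 to -1.84 (median -2.05) in WT and from -2.06 to -1.40 (median -1.55) in Per3 5/5 mice, 1.44-fold higher (0.52 ± 0.16, adjusted p = 0.0233). Its Per3 4/4 values ranged from -2.08 to -1.40. Chrm2 ranged from -5.72 to -4.55 (median -4.89) in WT and from -4.77 to -4.33 (median -4.54) in Per3 4/4 mice, 1.36-fold higher (0.45 ± 0.13, adjusted p = 0.0297). Its Per3 5/5 values ranged from -5.17 to -4.50 (median -4.70). The called KI groups overlapped with WT for each of these genes, with 5, 6 and 4 of 8 mice above every WT mouse. On the arrays of Per3 5/5 replicates 6, 7 and 8 Chrm3 lay at -2.66, -2.32 and -2.70, and on the other 5 between -3.72 and -3.35. Without these 3 arrays, left out after seeing the data, the Per3 5/5 differences of Chrm3 and Chrm5 were 0.27 and 0.44 and did not pass (adjusted p = 0.102 and 0.0767). With slide as a fixed block they turned to -0.079 and -0.076, where no slide held both Per3 5/5 and WT arrays and 0% of all probes were called. With scan day blocked, the differences were 0.72, 0.34 and 0.43 (adjusted p = 0.0567, 0.282 and 0.13), and within 1 scan day 0.95, 0.40 and 0.49 (adjusted p = 0.234, 0.288 and 0.553).

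Chrm1 was not called against WT with the 75th percentile scaling alone. It was called in KI cortex with scan day blocked, and in Per3 4/4 cortex also with normexp background correction. Probe A_52_P85372 averaged -2.29 and -2.22 in 4/4 and 5/5 cortex of scan day 1, -1.31 in Per3 4/4 and -2.09 in WT cortex of scan day 2, and -1.74 in Per3 5/5 and -2.17 in WT cortex of scan day 3. The KI averages of scan day 1 were thus below those of the same genotype on the other days. The difference from WT went from 0.27 ± 0.17 to 0.62 in Per3 4/4 (adjusted p = 0.00787 with the block) and from 0.14 ± 0.17 to 0.58 in Per3 5/5 cortex (adjusted p = 0.0363). Within scan day 2 it was 0.78 in Per3 4/4 (adjusted p = 0.0482) and within scan day 3 0.43 in Per3 5/5 mice (adjusted p = 0.243). Its other probe differed by -0.01 ± 0.10 and 0.01 ± 0.10. In the hypothalamus the same probe averaged -1.68 and -1.44 in 4/4 and 5/5 mice of scan day 1, -0.28 in Per3 4/4 mice of scan day 2 and -0.56 in Per3 5/5 mice of scan day 3.

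Of the nicotinic subunits Chrnb2 was lower in KI cortex. It ranged from 0.23 to 0.60 (median 0.34) in WT, from -0.38 to 0.27 (median 0.12) in Per3 4/4 and from -0.20 to 0.45 (median 0.07) in Per3 5/5 mice. It fell by 0.34 on the log2 scale in Per3 4/4 (SE 0.10, adjusted p = 0.0167) and by 0.30 in Per3 5/5 cortex (SE 0.10, adjusted p = 0.048), with 6 and 7 of 8 KI mice below every WT mouse. In a fit with scan day blocked the differences were -0.20 and -0.12, and within 1 scan day -0.16 and -0.17, and with slide as a fixed block the Per3 5/5 difference turned to 0.048. None of these passed. In the hypothalamus they were 0.06 ± 0.13 and -0.08 ± 0.13.

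Chrna4 rose in Per3 4/4 cortex with probe A_51_P104487, by 0.54 ± 0.18 (1.46-fold, adjusted p = 0.0316), from -2.33 to -1.20 (median -1.54) against -2.64 to -1.81 (median -2.05) in WT mice. It rose in Per3 5/5 hypothalamus with probe A_52_P350750, by 0.55 ± 0.14 (1.46-fold, adjusted p = 0.0107), from -1.14 to -0.38 (median -0.63) against -2.07 to -0.86 (median -1.27). In each tissue the groups overlapped, and the gene's other probe gave 0.11 ± 0.13 and 0.35 ± 0.16 without passing. Once scan day was blocked the differences were 0.33 and 0.62 (adjusted p = 0.259 and 0.0551), and within 1 scan day 0.42 and 0.71 (adjusted p = 0.396 and 0.263). Without the dim arrays of Per3 4/4 replicates 6 and 7 the cortex difference was 0.51 and did not pass (adjusted p = 0.0665). Chrna3, Chrna5 and Chrna7 were not called against WT, with the brighter probe of Chrna7 between -0.08 and 0.04 in these comparisons. The dimmer Chrna7 probe gave 0.54 and 0.76 in 5/5 and 4/4 hypothalamus without passing.

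Without the 6 cortex arrays high in striatal markers, 0 receptor genes were called in Per3 5/5 cortex, where 0% of all probes tested were, and 2, Adra2c and Chrm4, in Per3 4/4 cortex, where 7.09% were. The arrays of Per3 5/5 replicates 6, 7 and 8 had the 3 highest summed levels of the 8 markers of cortical excitatory neurons in the hypothalamus, 1.74, 1.84 and 1.58, against 0.995 to 1.37 in the other Per3 5/5, 0.96 to 1.24 in Per3 4/4 and 0.76 to 1.48 in WT mice. Without them 5 receptor genes were called in Per3 5/5 hypothalamus, Adra2c, Chrna4 and Drd2 higher and Hrh1 and Htr2c lower, where 27.3% of all probes tested were. The marker calls in the hypothalamus that follow stand beside 20.5% of all genes called in Per3 5/5 and 16.7% in Per3 4/4 mice. Of these lists, those with 1 call, at 14.3% to 25%, lie near these shares. Oligodendrocyte markers moved with genotype there, with 5 of 5 called higher in Per3 4/4 and 2 of 5 in Per3 5/5 mice. Their summed levels went from 7.31 to 7.89 in WT, 7.73 to 8.24 in Per3 4/4 and 7.61 to 7.96 in Per3 5/5 mice. Other markers called in Per3 5/5 hypothalamus were 3 of 6 of choroid plexus (all lower), 3 of 5 of astrocytes (2 higher), 2 of 5 of microglia (lower), 2 of 8 of cortical excitatory neurons (higher), 2 of 9 of hypothalamic neurons (lower), 2 of 6 of forebrain cholinergic neurons (1 higher), 1 of 7 of midbrain dopamine and raphe serotonin neurons (higher), 1 of 4 of endothelium (higher) and 1 of 5 of pituitary (lower). In Per3 4/4 hypothalamus 3 of 9 markers of hypothalamic neurons (1 higher) and 1 of 5 of astrocytes (higher) were called. So were 1 of 6 of forebrain cholinergic neurons (lower), 1 of 7 of midbrain dopamine and raphe serotonin neurons (higher) and 1 of 6 of choroid plexus (lower). Summed pituitary markers ranged from 0.32 to 9.54 in WT, 0.67 to 2.20 in Per3 4/4 and -0.34 to 5.45 in Per3 5/5 hypothalamus. In the cortex 3 of 7 markers of inhibitory neurons were called lower in Per3 4/4 mice, where 23.2% of all genes were called. In Per3 5/5 cortex 2 of 6 of hypothalamic neurons were higher, where 11.6% were. Of the midbrain dopamine and raphe serotonin markers 2 of 6 were lower in both KI cortices. The other lists had at most 2 calls in a KI cortex. The part of all these markers in the receptor differences was not tested.

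The genes around the receptors were counted in the same way. Of 23 genes of ligand synthesis, transport and breakdown, 15 of the 21 tested (71.4%) differed between tissues, where 72.7% of all genes did, 12 of them higher in the hypothalamus. Hdc (6.30), the histamine-forming enzyme, Slc6a3 (4.78), the dopamine transporter, Th (3.97), the rate-limiting enzyme of catecholamine synthesis, and Ddc (3.68) had the largest log2 differences. Against WT, 3 of 20 (15%) were called in Per3 5/5 cortex (11.6% of all genes), all lower, Tph2 (-0.53), the serotonin-forming enzyme of raphe neurons, Slc18a2 (-0.45), the vesicular monoamine transporter, and Hnmt (-0.38), which breaks down histamine. In Per3 4/4 cortex 3 (15%, against 23.2% of all genes) were called, Slc29a4 higher (0.64) and Slc18a2 (-0.48) and Tph2 (-0.43) lower. In the hypothalamus 6 of 21 (28.6%) were called in each KI group, 3 higher and 3 lower, against 20.5% of all genes in Per3 5/5 and 16.7% in Per3 4/4 mice. Th (0.55 and 0.64 in 5/5 and 4/4 mice), Ache (0.73 and 0.60), which breaks down acetylcholine, and the monoamine transporter Slc29a4 (0.45 and 0.58) were the higher ones in both. Gch1 (-0.49), which makes the cofactor of Th and Tph2, was lower in Per3 5/5 and Maob (-0.37), a monoamine-degrading enzyme, in Per3 4/4 mice.

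Of 20 receptors of the same ligands outside the 34 genes, 12 were tested in the cortex. There 0 were called in Per3 5/5 mice, against 11.6% of all genes. In Per3 4/4 mice 1 (8.33%, against 23.2%) was called, Chrna6, which was lower (-1.63, adjusted p = 0.0177). Between tissues 3 of 15 (20%) differed, where 72.7% of all genes did: Htr3b (2.70), Chrna6 (-1.76) and Htr6 (-0.74). Of 43 genes of receptor signalling, such as G protein subunits, adenylyl cyclases and phospholipases, 42 were tested. All 42 (100%) differed between tissues, where 72.7% of all genes did, and 30 were lower in the hypothalamus, with Adcy1 (-3.70) first. Against WT 2 (4.76%) were called in Per3 5/5 cortex, Adcy2 (0.53) and Kcnj6 (0.38), and 10 (23.8%) in Per3 4/4 cortex, where 11.6% and 23.2% of all genes were, 7 higher and 3 lower, among them Adcy2 (0.61). In the hypothalamus 13 (31%) were called in Per3 5/5 mice, 12 of them higher, and 10 (23.8%) in Per3 4/4 mice, 8 higher, where 20.5% and 16.7% of all genes were called, with Ppp1r1b, a target of the cyclic AMP pathway in dopamine-receptive neurons (0.80 and 0.95), and the cyclase Adcy5 (0.51 and 0.47) called in both. By limma these lists gave 0 calls between 5/5 and 4/4 mice, with 3, 1 and 4 genes in the cortex and 1, 2 and 6 in the hypothalamus at an unadjusted p under 0.05.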

How the data were processed

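RNA of frontal cortex and hypothalamus from 24 mice was hybridised by the authors to 1-colour Agilent arrays, and the deposited scanner files hold a processed intensity per spot with quality calls (background, outlier, saturation), made with Agilent Feature Extraction 10.7.1.1 per the file headers. The authors' deposited value table, in log2 and made with GeneSpring 12 per the labels, served as an alternative. Its values are centred within a tissue and 29.1% of its cortex cells are blank. After leaving out control and outlier spots, log2 intensity minus the array's 75th percentile was averaged over the spots of a probe, 41174 probes in all, of which 67.2% were named through RefSeq accessions.

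Probes well above the background on at least 6 of 8 arrays of a group were tested with limma 3.58.1 (R 4.3.3), which gave every adjusted p printed (Benjamini-Hochberg over all probes tested, called under 0.05), in 24 arrays for genotypes and 48 for tissues and interactions. The main genotype and tissue fits, without a block, were tested on simulated data. The number of arrays limits the precision, 8 a group, each of a separate mouse. So does their uneven spread over scan days and slides. Per the labels both tissues of a mouse pair (correlation of deviations from the group mean 0.109 to 0.688 over the mice). The 34 genes, the marker and pathway lists and the tests were chosen with earlier results of these data known. Genes named in full are receptor genes called between genotypes, the 6 called genes with the largest tissue difference in each direction and 10 sleep-related receptor genes, and of each pathway list up to 4 called genes with the largest difference per comparison, apart from some genes of these lists that are not reported here.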

Additional observations from a re-analysis of the deposited data

Results flagged for a closer look

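Of 180 groups of 8 mice (a receptor gene in 1 genotype and tissue), 18 held a mouse far from the other 7 by Dixon's criterion. Chance gives about 1 in 20 groups. In the cortex the levels that stood apart were low for Chrna7 in Per3 5/5 replicate 5 (-3.58), Htr1f in Per3 4/4 replicate 3 (-4.72), Adra1d in Per3 4/4 replicate 3 (-3.04), Htr2a in WT replicate 3 (-4.83), Chrna5 in Per3 5/5 replicate 8 (-5.59) and Per3 4/4 replicate 5 (-6.96) and Adra2c in Per3 5/5 replicate 6 (-0.25). They were high for Drd4 in Per3 4/4 replicate 1 (-1.52), Chrm4 in Per3 4/4 replicate 3 (-2.83) and Drd1 in Per3 4/4 replicate 2 (0.05), an array also high in striatal markers.

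In the hypothalamus they were low for Chrm5 (-3.17) and Drd3 (-5.92) in WT replicate 3, Adra2a in Per3 5/5 replicate 5 (2.01) and Adra2c in Per3 4/4 replicate 6 (-1.46), a dim array. They were high for Htr1f in WT replicate 7 (-3.74), Drd4 in WT replicate 8 (-2.26), Chrna3 in Per3 5/5 replicate 4 (-3.74) and Chrm4 in Per3 5/5 replicate 5 (-3.48).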

How the results depend on the processing

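Between tissues 22 to 28 receptor genes were called under the alternatives, against 27, and the authors' table was not run there because its values are centred within a tissue. Between 5/5 and 4/4 mice 0 were called in every setting run. Against WT the counts of 4 and 4 in 5/5 and 4/4 cortex and 6 and 5 in the hypothalamus (12.4%, 22.5%, 18.8% and 15.1% of all probes tested) depended on the processing, as did the shares of all probes. In the same order they were 1, 2, 5 and 2 (11.6%, 18.4%, 17.7% and 13.5%) with scaling to the median, 9, 16, 2 and 3 (30.9%, 54.5%, 6.37% and 6.55%) with normexp background correction, 0 in all (0%) with slide as a fixed block, 1, 2, 0 and 0 (0.986%, 7.72%, 2.1% and 0.745%) with scan day blocked, and 0, 1, 0 and 0 (0.00337%, 0.552%, 0.00325% and 0.0163%) within 1 scan day, where fewer arrays entered. In Per3 5/5 cortex quantile normalisation, no filter, slide as a random block and the methods' t-test each gave 2 (10.5%, 9.57%, 8.61% and 10.4%), and in Per3 5/5 hypothalamus slide as a random block and the methods' t-test gave 3 (10.5% and 13.2%). Without the 6 cortex arrays high in striatal markers 0 and 2 were called in the cortex (0% and 7.09%), and without 3 hypothalamus arrays high in cortical markers 5 and 7 in the hypothalamus (27.3% and 24.6%), both chosen after seeing the data. The replicate number as a block gave 1, 4, 7 and 5 (12.4%, 23.2%, 20.8% and 17.4%). Replicates of 1 number shared a slide in part of the 5/5 and 4/4 mice, but in every genotype comparison some pairs did not pass a correlation of 0.1 (1 to 6 of 8 did). With the mouse as a block 27 were called between tissues. With slide as a fixed block the differences of Chrnb2 in Per3 5/5 cortex (0.048), Chrm3 (-0.079) and Chrm5 (-0.076) in Per3 5/5 hypothalamus and Htr2a in Per3 4/4 hypothalamus (-0.12) reversed. The causes were not tested. Of the 23 called genotype differences, counted by probe, 2 passed with scan day blocked, 14 with slide as a random block, 10 with scaling to the median and 23 in the authors' table.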
